A study of Mus musculus with 8 samples.

Results

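The genes described here encode the SR proteins and the heterogeneous nuclear ribonucleoproteins (hnRNPs), the main families of proteins that bind pre-mRNA and steer the choice of splice sites. They were taken as the rows of the deposited count table whose gene name begins with Srsf and a digit or with Hnrnp or Hnrp, which gave 32 of 24746 genes. Of these, 11 are SR protein genes and 21 carry an hnRNP name, among them *Hnrnpa1l2-ps2*, which GENCODE annotates as a processed pseudogene. Bone marrow pro-B cells were sorted by flow cytometry from 8 mice. The 4 controls were miR-15a/b+/+ Vav-Cre, and the 4 DKO animals were miR-15a/bfl/fl Vav-Cre. The mice were on a C57BL/6 background and aged 10 to 12 weeks. Both groups carry the Vav-Cre transgene, which is active in hematopoietic stem cells and all their descendants, so in DKO mice the floxed cluster of miR-15a with miR-16-1 and that of miR-15b with miR-16-2 are lost in the whole hematopoietic system and not in pro-B cells alone. Each mouse gave 1 library, amplified by the SMART-seq protocol.

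SR proteins carry RNA recognition motifs and a tail rich in arginine and serine. They bind enhancer sequences in exons and recruit the spliceosome, and they enter the nucleus and become active through phosphorylation of that tail. hnRNPs coat nascent transcripts, and many of them bind silencer sequences and work against SR proteins at the same exons. Genes of both families are known to limit their own output through exons that carry a premature stop codon, whose transcripts are removed by nonsense-mediated decay. The counts used here are sums over all exons of a gene, so they show how much transcript was present and not how it was spliced.

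The deleted miRNAs share 1 seed, the bases by which a miRNA recognizes its targets. They are printed with the seed (bases 2 to 8) in capitals, as RefSeq gives them on GRCm38.p6, because the seed defines the sites searched in the splicing factor genes below.
miR-15a-5p: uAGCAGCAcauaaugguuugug
miR-15b-5p: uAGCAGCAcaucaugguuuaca
miR-16-5p: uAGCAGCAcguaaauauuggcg

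Matching sites were searched in the 3' UTRs of GENCODE M21 transcripts, on the transcript strand, as TGCTGCTA (8mer), TGCTGCT (7mer-m8, which every 8mer contains) and GCTGCTA (7mer-A1, likewise contained in the 8mer). In the longest GENCODE 3' UTR, 8 of 30 tested members with an annotated 3' UTR had a site of any kind (26.7%), against 3298 of 11810 tested genes (27.9%). Sites are shown in capitals for *Hnrnpd* and *Hnrnpu*, the members with a site whose log2 fold change was highest, and for 3 members with a site and a log2 fold change near 0 or below it, so that sequence can be set against level. The 8mer of *Hnrnpu* lies at chr1:178327905-178327912 on the minus strand of GRCm38 and the 7mer-A1 of *Hnrnpd* at chr5:99959765-99959771 on the minus strand. Those of *Srsf6*, *Srsf11* and *Hnrnpul2* are all 7mer-m8 sites, at chr2:162936263-162936269 (plus strand), chr3:158011783-158011789 (minus strand) and chr19:8832593-8832599 (plus strand). These 5 sites lie in exons over which reads were counted.
Hnrnpu 8mer: ctactacacaaTGCTGCTAacttaactagc
Hnrnpd 7mer-A1: ctagttcatgaGCTGCTAtcagattggtc
Srsf6 7mer-m8: tcaaacaaagcTGCTGCTttagtcttctt
Srsf11 7mer-m8: agctgtgcaacTGCTGCTttaacacagat
Hnrnpul2 7mer-m8: gggctctgcccTGCTGCTgttttttgttt

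Libraries held between 38073065 and 43288133 counts. As a check of the labels, *Mir16-1*, which lies in the floxed segment beside *Mir15a*, had 5, 1, 2 and 4 reads in controls 1 to 4 and no read in DKO mice (0 in each). Of the other cluster, *Mir15b* had 0 reads in each library and *Mir16-2* had 1 read, in control mouse 3. Loss of that cluster could therefore not be checked in these counts. The summed level of 15 pro-B cell genes, among them *Igll1* and *Dntt*, was between 32009 and 35914 CPM in controls and between 33879 and 37653 CPM in DKO mice. Of these 15, 2 were called higher in DKO cells and 13 did not pass. The 2 were *Kit*, with means of 17.9 and 41.5 CPM, and *Il7r*, with means of 236 and 456 CPM (edgeR adjusted p = 0.0081 and 0.00266). CPM is the usual scaling of counts to a common library total, here with TMM-normalized library sizes. Markers of other cells were present at lower summed levels. Those of neutrophils ranged from 422 to 2821 CPM in controls and from 311 to 2232 CPM in DKO mice, highest in controls 1 and 4 and DKO mice 3 and 4, and those of monocytes and macrophages from 452 to 1037 and from 328 to 801 CPM. The globin genes *Hba-a1*, *Hba-a2*, *Hbb-bs* and *Hbb-bt* were listed at 0 in each library. Markers of later B cell stages summed to between 584 and 889 CPM in controls and between 573 and 882 CPM in DKO mice, but 3 of 11 were called lower in DKO cells, *Cd74*, *H2-Eb1* and *Fcer2a*, and the median log2 fold change of the list was -0.74. Of the stroma and endothelium list, 1 of 4 tested genes, *Cxcl12*, was called lower. None of the 15 monocyte and macrophage genes or the 10 neutrophil genes passed, with medians of -0.72 and -0.34. *Xist* had 0 to 6 reads in control mouse 1 and DKO mice 3 and 4 and at least 2805 in the other mice, so the sexes were mixed within both groups. In sorted bulk cells, a change in the mix of cells and a change per cell cannot be told apart.

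Most of these genes, but not all, were among the more abundant transcripts of pro-B cells. A mean of 100 CPM or more was reached by 22 of the 31 tested members, against 2107 of 12714 tested genes. *Hnrnpll*, *Hnrnpa1*, *Hnrnpa1l2-ps2* and *Srsf12* lay below 5 CPM. The 32 genes together took 1.064, 1.113, 1.192 and 1.164% of all counts in control mice 1 to 4 and 1.380, 1.289, 1.291 and 1.279% in DKO mice 1 to 4, so that the lowest DKO mouse lay above the highest control mouse. For the SR protein genes the share was 0.359 to 0.386% in control and 0.400 to 0.440% in DKO mice, and for the genes with an hnRNP name 0.696 to 0.822% and 0.865 to 0.940%.

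Per length of exon, *Hnrnpa2b1*, whose product binds nascent and exported RNA, was highest in each of the 8 mice, with a mean of 663 CPM per kb. *Hnrnpk*, which encodes a binder of cytosine-rich sequence, was second in each of the 8 mice with a mean of 577 CPM per kb. *Srsf2*, *Srsf3*, *Hnrnpc* and *Srsf7* followed at 361, 358, 315 and 252 CPM per kb, and their order changed from mouse to mouse. The lowest of the tested protein-coding members were *Hnrnpa1* at 0.549 and *Hnrnpll* at 1.24 CPM per kb. *Hnrnpll* encodes the hnRNP known for the exon choice of *Ptprc* (CD45) in activated T cells and of immunoglobulin heavy chain mRNA in plasma cells. *Srsf12* had at most 2 reads in a library and was the only member removed by the filter on low counts, which left 31 members among 12714 tested genes.

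**Figure D1:**
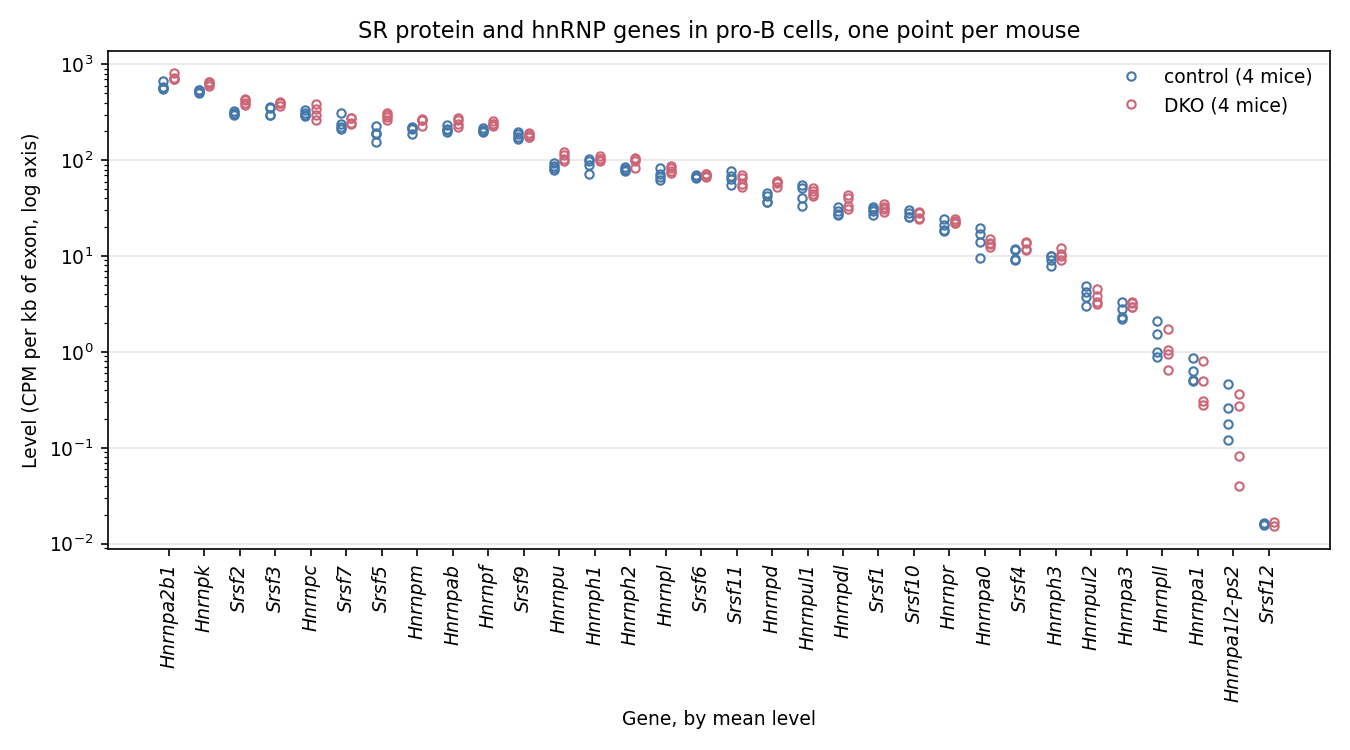
Level of the 32 SR protein and hnRNP genes in CPM per kb of exon on a log axis, ordered by their mean, with 1 point per mouse for the 4 control and 4 DKO mice (libraries without a read are not drawn). Levels run from 663 CPM per kb for *Hnrnpa2b1* to 0.0101 for *Srsf12*.

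Several members with low levels share their exons with other genes of the table. Of the 2190 exon bases of *Hnrnpa1*, 1759 (80.3%) also lie in exons that the table gives to *Gm5643* or *Gm10052* on the same strand, and the gene had 23 to 81 reads in a library. *Gm5643* had 16 to 44 reads and *Gm10052* had 0. Of all 100-base windows of *Hnrnpa1* transcripts in GENCODE, 43.0% also occur in transcripts of 11 pseudogenes. For *Hnrnpa3* the exon share was 27.9% (with *Gm6793*, at 0 reads). On the opposite strand, *Hnrnph3* shared 78.3% of its exon bases with *Rufy2* and *Srsf4* shared 68.8% with *Gm12992*. How reads over such bases were assigned, and whether strand was used, the sources used here do not state, so the levels of these 4 genes are uncertain. *Hnrnpf* shares no exon with another gene of the table, but 49.4% of its windows recur in other genes. *Hnrnpu*, *Hnrnpk* and *Hnrnpab* shared at most 5.18% of their exon bases, and the remaining 25 members shared none, among them the low *Hnrnpll*, *Hnrnpul2* and *Srsf12*.

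**Figure D2:**
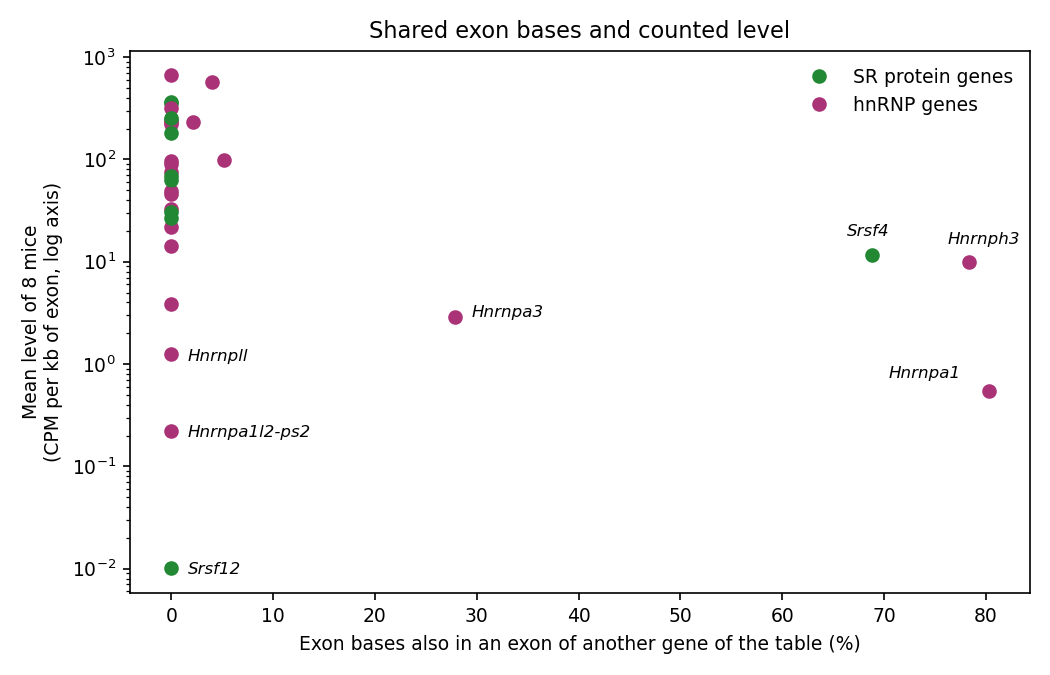
Share of a gene's exon bases that also lie in an exon of another gene of the table (x axis, percent) against the mean level over 8 mice in CPM per kb of exon (y axis, log axis), 1 point per gene. *Hnrnpa1*, *Hnrnph3*, *Srsf4* and *Hnrnpa3* lie apart at 80.3, 78.3, 68.8 and 27.9%, with levels of 0.549, 9.84, 11.6 and 2.89 CPM per kb.

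To see which splicing factors differed upon loss of the miR-15 family, DKO and control pro-B cells were compared by edgeR's quasi-likelihood test over all 12714 tested genes with Benjamini-Hochberg adjustment. At an adjusted p under 0.05, 3 of the 31 tested members were higher in DKO cells (9.68%), *Hnrnpd*, *Srsf5* and *Srsf2*, and none was lower. Over all tested genes 2.65% were called higher and 1.93% lower. An unadjusted p under 0.05 was found for 13 members, and all 13 were higher in DKO cells, where the share over all tested genes was 10.3% higher and 9.86% lower. In 9 members each DKO mouse lay above each control mouse, which held for 7.63% of all tested genes, and in none did each DKO mouse lie below, which held for 6.21%. The log2 fold change (DKO minus control) was above 0 for 23 of 31 members, with a median of 0.17, and above 0 for 47.6% of all tested genes, with a median of -0.01. Among the 22 members at 100 CPM or more, 3 were called and 9 had groups that did not overlap, against 3.84 and 11.2% of the 2107 genes at that level.

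The number of calls changed with the test and with single mice. DESeq2 called 7 members higher, adding *Hnrnpu*, *Hnrnpk*, *Hnrnpa2b1* and *Hnrnpm*, with 4.63% of all genes called higher and 3.87% lower. The likelihood ratio test called 4, adding *Hnrnpu*, with 4.08% of all genes higher and 3.63% lower, and limma-voom called 3, with 2.74% higher and 1.77% lower. With the level of *Xist* as a covariate 6 were called, adding *Hnrnpu*, *Hnrnpdl* and *Hnrnpa2b1*, with 4.40% of all genes higher and 3.98% lower. The number was 1 without control mouse 4 and 0 without DKO mouse 1 or DKO mouse 3, and in these fits the calls over all genes also dropped, from 337 higher to 164, 144 and 142.

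**Figure D3:**
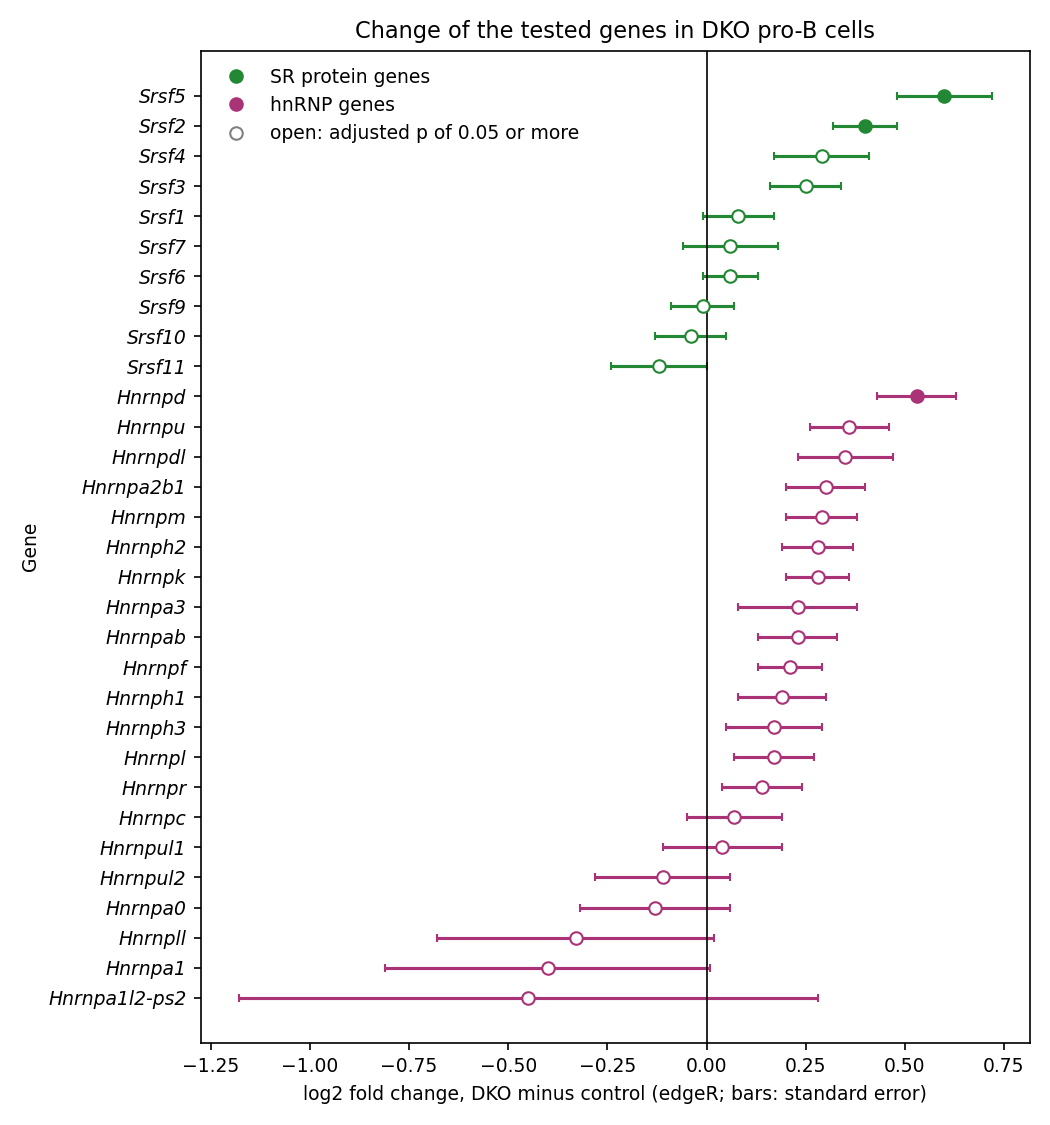
Log2 fold change, DKO minus control, with its standard error from edgeR for the 31 tested genes, SR protein genes above and hnRNP genes below. Filled points mark the 3 genes with an adjusted p under 0.05, *Srsf5* (0.60), *Hnrnpd* (0.53) and *Srsf2* (0.40).

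*Srsf5* (chromosome 12, 80945499 to 80950506, GRCm38), which encodes an SR protein formerly known as SRp40, showed the largest rise among the SR proteins. It was at 259, 310, 380 and 322 CPM in control mice 1 to 4 and at 491, 438, 520 and 474 CPM in DKO mice 1 to 4. Control mouse 1 was the lowest of the 8, and the groups did not overlap. The mean went from 318 ± 49.6 to 481 ± 34.1 CPM (SD, n = 4 mice each), which is 1.51-fold, with a log2 fold change of 0.60 ± 0.12 (SE, edgeR adjusted p = 0.0184). The gene lost its call when control 4, DKO 1 or DKO 3 was left out (adjusted p = 0.0553, 0.0626 and 0.0629).

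*Srsf2* (chromosome 11, 116849897 to 116853094) encodes SC35, an SR protein that helps recruit the U1 and U2 particles to splice sites and that is recurrently mutated in human myeloid neoplasms. It was at 599, 566, 620 and 584 CPM in the control mice and at 816, 760, 826 and 724 CPM in the DKO mice. The control mice lay close together, and all were below the lowest DKO mouse. The mean rose from 592 ± 22.9 to 781 ± 48.0 CPM (SD, n = 4 each), a log2 fold change of 0.40 ± 0.08 (SE, edgeR adjusted p = 0.0236). It lost its call when control 2, control 4, DKO 1, DKO 2 or DKO 3 was left out (adjusted p = 0.0581, 0.0703, 0.0852, 0.0615 and 0.0895). In GENCODE, 16.6% of its 100-base windows also belong to transcripts of the neighbors *Mettl23* and *Mfsd11*.

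The other SR protein genes did not pass the test. *Srsf3*, which encodes the smallest SR protein and one that also serves mRNA export, was at 1102, 914, 905 and 1064 CPM in controls and at 1201, 1119, 1192 and 1221 CPM in DKO mice. The groups did not overlap, yet control mouse 1 lay only just below DKO mouse 2, and the log2 fold change was 0.25 ± 0.09 (SE, edgeR adjusted p = 0.164). *Srsf7*, its closest relative in the family, was at 853 CPM in control mouse 1 and 580 to 653 CPM in the other control mice, and at 659 to 754 CPM in DKO mice. Its log2 fold change was 0.06 (standard error 0.12). *Srsf4* was at 23.6 ± 3.32 CPM in controls and at 28.8 ± 2.92 CPM in DKO cells (mean ± SD of 4 mice), and edgeR gave an adjusted p of 0.224.

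*Srsf1*, the founding member of the family, *Srsf6*, *Srsf9*, *Srsf10*, whose product turns into a repressor when it loses its phosphate groups, and *Srsf11* had log2 fold changes from -0.12 to 0.08. *Srsf6* was at 234 to 248 CPM in controls and at 239 to 257 CPM in DKO mice, the tightest of the members with a coefficient of variation of 2.61% among control mice. Its log2 fold change was 0.06 with a standard error of 0.07.

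Among the hnRNP genes only *Hnrnpd* passed. The gene (chromosome 5, 99955935 to 99978938) encodes AUF1, which binds AU-rich elements in the 3' UTR of short-lived mRNAs. It was at 251, 247, 309 and 286 CPM in the control mice and at 418, 405, 399 and 356 CPM in the DKO mice, and the groups were well apart. The mean went from 273 ± 29.2 to 395 ± 26.7 CPM (SD, n = 4 each), 1.44-fold, with a log2 fold change of 0.53 ± 0.10 (SE, edgeR adjusted p = 0.0149). It lost its call when DKO 1 or DKO 3 was left out (adjusted p = 0.0567 and 0.0503). Its paralog *Hnrnpdl* was at 75.9, 73.9, 89.4 and 81.2 CPM in controls and at 111, 120, 92.3 and 85.7 CPM in DKO mice, where DKO mouse 4 lay below control mouse 3. The log2 fold change was 0.35 ± 0.12 (SE, edgeR adjusted p = 0.119).

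*Hnrnpu* encodes SAF-A, an RNA-binding scaffold protein of chromatin, and carries the 8mer shown above in its longest and in its shortest annotated 3' UTR. It was at 596, 634, 705 and 661 CPM in the control mice and at 925, 866, 790 and 747 CPM in the DKO mice, again without overlap. The log2 fold change was 0.36 (standard error 0.10) and the adjusted p was 0.0614 in edgeR's quasi-likelihood test, 0.0340 in its likelihood ratio test and 0.00963 in DESeq2.

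The abundant *Hnrnpk*, *Hnrnpa2b1* and *Hnrnpm* showed smaller differences of the same sign that did not pass. *Hnrnpc*, also abundant, had a log2 fold change of 0.07, and its groups overlapped. *Hnrnpk* was at 1628, 1546, 1645 and 1515 CPM in controls and at 1970, 1800, 1905 and 1990 CPM in DKO mice, a log2 fold change of 0.28 ± 0.08 (SE, edgeR adjusted p = 0.0847). Its replicates were close and did not overlap between groups, and without control mouse 1 it passed (adjusted p = 0.0459). *Hnrnpa2b1* was at 1329, 1352, 1623 and 1395 CPM in controls and at 1934, 1697, 1722 and 1685 CPM in DKO mice (log2 fold change 0.30, standard error 0.10, adjusted p = 0.101). *Hnrnpm*, which encodes an hnRNP of exon skipping, was at 478, 533, 567 and 546 CPM in controls and at 660, 580, 665 and 685 CPM in DKO mice (log2 fold change 0.29, standard error 0.09, adjusted p = 0.102).

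The F/H genes encode binders of guanine tracts, and all 4 had a log2 fold change above 0, from 0.17 to 0.28, without passing. *Hnrnpf* was at 592 to 656 CPM in controls and at 676 to 762 CPM in DKO mice, so its groups did not overlap (adjusted p = 0.164 from edgeR). *Hnrnph2*, on the X chromosome, was at 193 to 212 CPM in controls and at 207 to 259 CPM in DKO mice, and DKO mouse 2 lay within the control range. *Hnrnph1* was at 162 CPM in control mouse 1 and 197 to 245 CPM in the other mice of both groups.

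**Figure D4:**
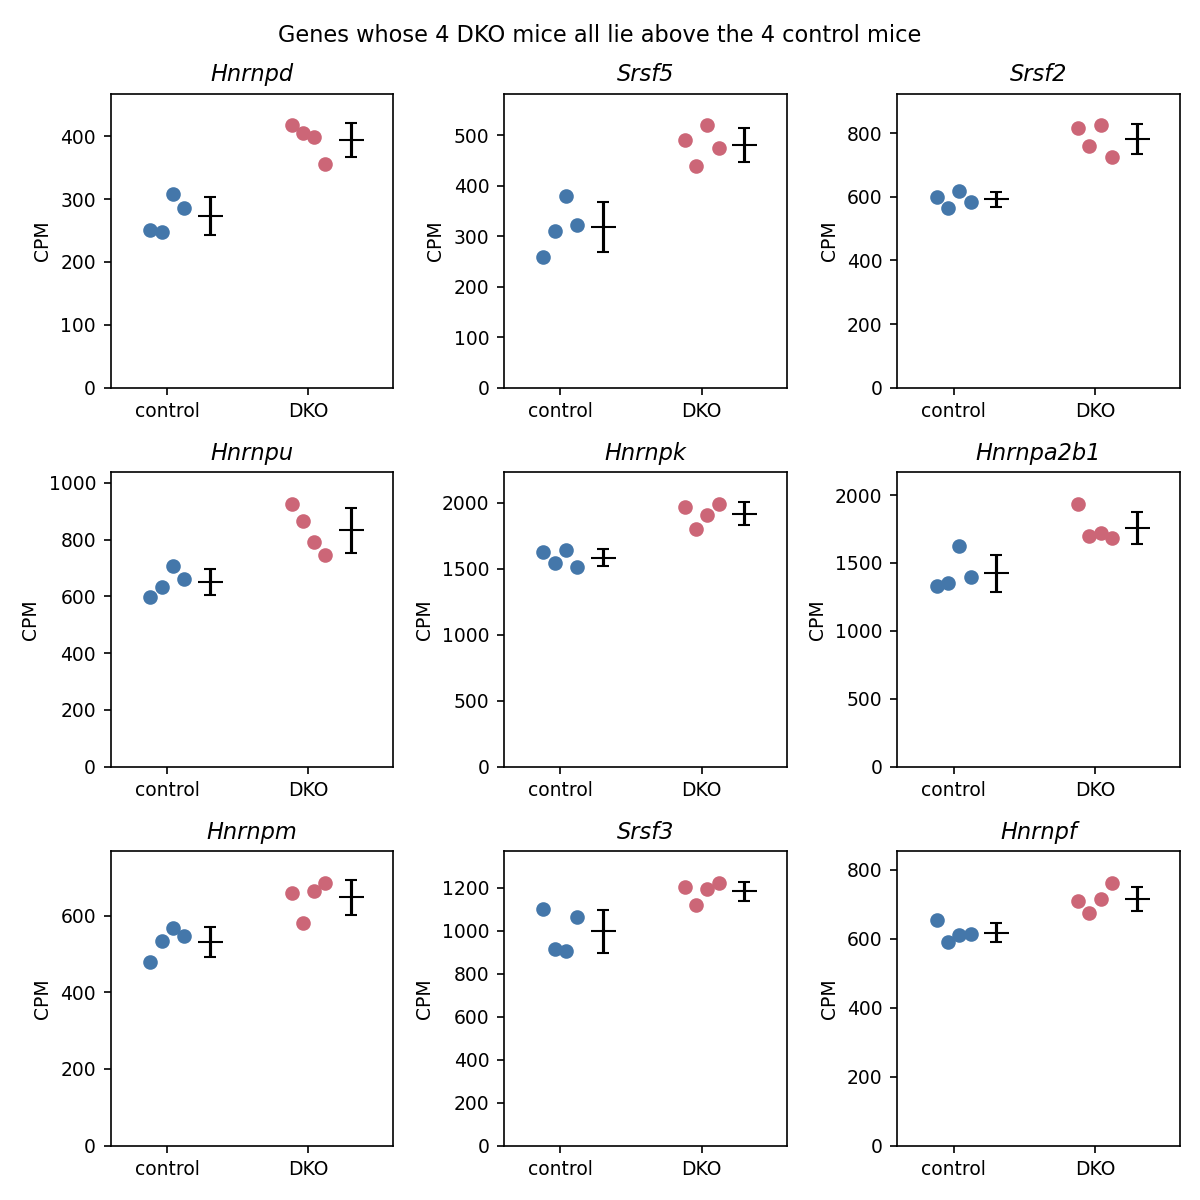
CPM per mouse (points, y axis from 0) in control and DKO pro-B cells, with mean and SD (n = 4 each) beside the points, for the 9 genes whose DKO mice all lie above the control mice. *Hnrnpd*, *Srsf5* and *Srsf2* passed the test and the other 6 did not.

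The remaining hnRNP genes did not pass either. *Hnrnpc*, which encodes a binder of uridine tracts, was at 818 to 957 CPM in controls and at 748 to 1100 CPM in DKO mice, the widest spread among the abundant members in DKO cells, with a coefficient of variation of 16.6%. *Hnrnpa3*, *Hnrnpab*, *Hnrnpl*, which encodes a binder of CA repeats, *Hnrnpr* and *Hnrnpul1* had log2 fold changes of 0.23, 0.23, 0.17, 0.14 and 0.04. *Hnrnpa0* and *Hnrnpul2* were at -0.13 and -0.11. The largest negative values, -0.33 for *Hnrnpll*, -0.40 for *Hnrnpa1* and -0.45 for *Hnrnpa1l2-ps2*, belong to genes below 5 CPM with standard errors of 0.35, 0.41 and 0.73.

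Members with and without a miR-15 site overlapped in their change. The 8 tested members with a site in the longest 3' UTR had log2 fold changes from -0.40 to 0.53 with a median of 0.10, and 1 of them, *Hnrnpd*, was called. The 22 without a site ranged from -0.33 to 0.60 with a median of 0.20, and *Srsf5* and *Srsf2* are among them. With the shortest 3' UTR only *Hnrnpu*, *Hnrnpul2* and *Hnrnpa1* had a site, with log2 fold changes of 0.36, -0.11 and -0.40. The -0.40 in both sets belongs to *Hnrnpa1*, whose level is uncertain, at means of 1.37 and 1.03 CPM with a standard error of 0.41. The next lowest member with a site was *Srsf11* at -0.12. The -0.33 without a site belongs to *Hnrnpll*, also low at means of 4.34 and 3.45 CPM with a standard error of 0.35. *Hnrnpr* has an 8mer in its longest 3' UTR too, but this lies outside the exons over which its reads were counted, which hold 1 of its 7mer-m8 sites.

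The same comparison was read for 170 related splicing genes, listed by role. Of 164 tested, 7 were higher, 1 was lower and 156 did not pass, and the median log2 fold change was 0.05. The share called higher, 4.27%, was near the 2.65% over all tested genes. Yet in 25 of the 164 each DKO mouse lay above each control mouse (15.2%, against 7.63% of all tested genes). In 1 of the 164 each DKO mouse lay below. An unadjusted p under 0.05 from edgeR was found for 26 that were higher (15.9%, against 10.3% of all tested genes) and 7 that were lower. Among other sequence-specific regulators, 4 of 38 were higher (10.5%), among them *Ewsr1*, which encodes an RNA-binding protein, *Pspc1*, a paraspeckle protein, and *Khsrp*, a KH-type binder of AU-rich elements. In 9 of these 38 each DKO mouse lay above each control mouse (23.7%), which held for 29% of the tested SR protein and hnRNP genes. *Ewsr1* rose from 672 ± 50.9 to 860 ± 18.7 CPM and *Pspc1* from 44.8 ± 1.28 to 62.4 ± 3.47 CPM (SD, n = 4 each, adjusted p = 0.0388 and 0.0109 from edgeR). Of 66 core proteins of the snRNPs and the spliceosome, 2 were higher (3.03%, again near the share over all genes), *Prpf19*, the ubiquitin ligase of the spliceosomal complex named after it, and *Prpf31*, of the U4/U6 particle. *Prpf19* went from 58.6 ± 6.75 to 84.8 ± 7.40 CPM, with a log2 fold change of 0.53 ± 0.10 (SE, edgeR adjusted p = 0.0184). The log2 fold change was above 0 for 46 of the 66 (69.7%, median 0.12), against 47.6% of all tested genes. In 12 of the 66 each DKO mouse lay above each control mouse (18.2%, against 7.63% of all tested genes).

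Among genes that act on SR proteins, of 19 kinases, phosphatases and importers, *Ppp1cc*, a catalytic subunit of protein phosphatase 1, rose from 270 ± 7.36 to 344 ± 10.8 CPM (SD, n = 4 each, adjusted p = 0.0253 from edgeR), and 18 did not pass. *Tnpo3*, the importer of SR proteins, was at 62.0 and 75.0 CPM (adjusted p = 0.165), and the SR kinase gene *Clk1* was at 135 to 153 CPM in control mice but at 141, 127, 88.9 and 77.4 CPM in DKO mice 1 to 4 (adjusted p = 0.200).

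Of 25 tested SR-related genes only *Rnps1* passed, and it was lower. *Rnps1* encodes a splicing activator of the complex deposited on exon junctions and also stands among 17 nonsense-mediated decay factors, of which the other 16 did not pass. It was at 202, 194, 203 and 202 CPM in controls and at 161, 159, 138 and 139 CPM in DKO mice, with no overlap. Its log2 fold change was -0.42 ± 0.08 (SE, edgeR adjusted p = 0.0178). *U2af1* and *U2af2*, whose products recognize the end of the intron, had log2 fold changes of 0.38 and 0.34 with adjusted p of 0.0548 and 0.0991.

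Some genes of proliferation also differed. Of 20 such genes 7 rose (35%, against 2.65% over all tested genes) and 13 did not pass. The median log2 fold change over the 20 was 0.45. The 7 were *Mcm2*, *Mcm3*, *Mcm4*, *Mcm5*, *Mcm6*, *Mcm7* and *Rrm1*. *Mki67* and *Cdk1* did not pass (log2 fold change 0.24 and 0.20), and *Ccnb1* and *Ccnb2* were below 0 without passing (-0.23 and -0.22). Their summed level was 5021, 3684, 4217 and 4399 CPM in control mice 1 to 4 and 6051, 5980, 5644 and 4879 CPM in DKO mice 1 to 4. On the same scale the summed level of the 32 splicing factor genes was 11105, 10757, 11606 and 11384 CPM in control mice and 13805, 12837, 13157 and 13148 CPM in DKO mice. Control mouse 2 was lowest and DKO mouse 1 highest in both sums, but the order of the other mice differed. Among controls, mouse 1 was highest for proliferation and mouse 3 for splicing factors. Among DKO mice, mouse 4 was lowest for proliferation and mouse 2 for splicing factors. The part of proliferation or of other cells in the differences of splicing factors was not tested.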

How the data were processed

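RNA-seq libraries of sorted pro-B cells from 4 control and 4 DKO mice were grouped by the sample labels. The authors deposited raw counts per gene. Their methods name Trimmomatic for trimming, STAR for alignment of single end reads and featureCounts for counting. Not given in the sources used here: versions of these tools and whether counting used strand. The submitters' processing notes name GRCm39, but of 24148 genes whose symbol is in GENCODE M21, 99.7% lie where that GRCm38 annotation places them. Coordinates are therefore given on GRCm38. No column of per-sample values was left unassigned (0), no mitochondrial gene is listed (0), and 13 gene names turned into dates were left as they stand. The 8 libraries held 38073065 to 43288133 counts.

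Counts were TMM-normalized and low genes were removed by filterByExpr at its defaults (count 10, total 15). For the 12714 remaining genes, edgeR 4.0.16 (R 4.3.3) ran its quasi-likelihood test with the genotype as the only term, Benjamini-Hochberg adjustment and a threshold of 0.05, and the tests were tried on simulated data. The 15 members named in full are those past the threshold, the 12 with the smallest p, the 6 highest per kb, those whose groups do not overlap and those removed by the filter. Members, gene lists and rules were chosen with earlier results of these data known. All replicate pairs differed by more than sampling noise. Alternatives were the likelihood ratio test, DESeq2 1.42.0, limma-voom (limma 3.58.1), a robust fit, other normalizations and filters, the replicate number as a block, *Xist* as covariate, libraries without immunoglobulin and hemoglobin genes, and leaving out each mouse. Each library came from a separate mouse, so p-values measure the spread between mice. Some genes of the related and marker lists are not reported here.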

Additional observations from a re-analysis of the deposited data

Results flagged for a closer look

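The level of each of the 31 tested genes was checked for a mouse far from the others of its group, in 62 groups of 4 mice. *Hnrnpa2b1* in DKO mouse 1 stood out, at 1934 CPM against 1685, 1697 and 1722 CPM in the other DKO mice, a gap of 0.851 of the group's range, past the limit of Dixon's test for 4 values. Chance marks about 1 group in 20, and 1 of 62 was marked here.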

How the results depend on the processing

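All 3 called members kept a log2 fold change above 0 under all alternatives, and none of the 31 was called lower under any. Members called higher (3) numbered 7 with DESeq2, 6 with *Xist* as covariate and 0 to 4 when a mouse was left out. Over all genes, calls higher (337) and lower (245) numbered 519 and 461 with the likelihood ratio test, 663 and 555 with DESeq2, 559 and 506 with *Xist*, and 142 to 493 and 84 to 398 when a mouse was left out. Related genes called higher (7) numbered 13 with DESeq2, 12 with *Xist*, 4 with library size alone and 1 to 9 when a mouse was left out, and those lower (1) numbered 2 with DESeq2 and 0 to 4. The log2 fold change of *Hnrnpc* was -0.00 with *Xist* and -0.03 to 0.16 when a mouse was left out (lowest without DKO mouse 4), and that of *Srsf7* -0.00 to 0.20 (lowest without control mouse 3). The cause was not tested.

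With the replicate number as a block, 0 members, 94 genes higher and 54 lower, and 0 related genes in either direction were called, with an adjusted p of 0.0725 for *Hnrnpd*, 0.0528 for *Srsf5* and 0.104 for *Srsf2*. Deviations of same-numbered mice correlated at -0.199, 0.0461, -0.185 and -0.0334, which gave no sign that the numbers pair the mice. With 4 mice in each group these values cannot exclude a pairing.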
